A study of Homo sapiens with 24 samples.

Results

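The libraries described here measured the messenger RNA of KG-1a cells after 8 h with 8-amino-adenosine (8AA) at a dose of 1 uM, beside untreated KG-1a cells of the same time point. They were chosen by their labels: 2 libraries treated with 8AA and 2 untreated libraries, 4 of the 24 in the series. KG-1a is an acute myeloid leukemia (AML) line of blasts that express CD34 and show little maturation. MV4-11, the other line, is an AML line of monocytic type with a FLT3 mutation. The series holds each line untreated, with 1 uM 8-chloro-adenosine (8CA) or with 1 uM 8AA, at 8 h and at 24 h, in 12 groups of 2 libraries labelled A and B. Neither line carried an engineered change, and the genotype was given as wild type for all groups. The untreated groups carried no agent, and no vehicle is named in the labels, so an effect of a vehicle cannot be told apart from that of the drug if one was used. The labels do not say whether A and B were separate cultures, so the p-values measure the spread between these libraries, which may be technical.

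8AA is an adenosine analog with an amino group at position 8 of the base, where 8CA carries a chlorine. Cells phosphorylate both analogs to triphosphates, which interfere with RNA synthesis and lower ATP. Several of the gene groups below are standard readouts of growth and nutrient signalling. ERK signalling drives the transcription factors ETV4 and ETV5 and its own inhibitors of the DUSP, SPRED and SPRY families. MYC drives the genes that build ribosomes, often through the E-box. ATF4 is translated when amino acids run short or unfolded proteins gather, and it drives genes of amino acid synthesis, transport and tRNA charging through the C/EBP-ATF response element. FOXO factors, which growth factor signalling keeps out of the nucleus, drive genes of growth arrest and nutrient saving.

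The 4 libraries held between 18754237 and 23181651 counts assigned to genes, within the range of 18633963 to 24520078 over all 24 libraries. Replicate pairs differed by more than counting noise, with a chi-square per degree of freedom of 3.59 for the untreated pair, 2.07 for the 8AA pair and 1.43 to 12.3 for the other pairs. The highest value, 12.3, belonged to the 8AA pair of KG-1a at 24 h. Markers of KG-1a summed to 2176 to 2183 CPM (a gene's count relative to the total of its library) untreated and to 2160 to 2212 with 8AA, with 1 of the 6 below 1 in all 4 libraries. Of the 6 markers of MV4-11, 5 lay below 1 CPM in all 4 libraries, and HOXA9 made up nearly all of their sum of 26.0 to 28.1 untreated and 30.7 to 30.8 with 8AA. The erythroid, B cell and epithelial lists summed to at most 1.11 CPM. The T cell list summed to 284.6 to 291 untreated and 280.0 to 298 with 8AA, nearly all of it from CD3D and CD3E. In the fibroblast list, 3 of the 4 markers were at 0 in all 4 libraries, and the sum of 0.160 to 0.283 untreated and 1.87 to 2.03 with 8AA came from COL3A1.

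The promoter sequences of 6 genes are shown because they carry, in capitals, the short motifs of the gene groups that fell together. The sequences are RefSeq's, build GRCh38.p14, and each runs 5′ to 3′ on the strand of the gene from 250 bases before its start to 50 bases after it. Capitals mark the C/EBP-ATF response element, searched as TGATGNAA on both strands, in the genes of a glutathione-degrading enzyme (CHAC1, chr15:40953221-40953520, plus strand), asparagine synthetase (ASNS, chr7:97872359-97872658, minus strand) and threonyl-tRNA synthetase (TARS, chr5:33440715-33441014, plus strand).
CHAC1: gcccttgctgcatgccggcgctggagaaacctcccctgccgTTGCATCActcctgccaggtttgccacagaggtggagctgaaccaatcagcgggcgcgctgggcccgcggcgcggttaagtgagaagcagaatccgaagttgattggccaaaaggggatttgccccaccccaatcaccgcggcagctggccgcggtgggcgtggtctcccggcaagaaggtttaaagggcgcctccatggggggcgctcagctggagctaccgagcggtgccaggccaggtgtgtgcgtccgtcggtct
ASNS: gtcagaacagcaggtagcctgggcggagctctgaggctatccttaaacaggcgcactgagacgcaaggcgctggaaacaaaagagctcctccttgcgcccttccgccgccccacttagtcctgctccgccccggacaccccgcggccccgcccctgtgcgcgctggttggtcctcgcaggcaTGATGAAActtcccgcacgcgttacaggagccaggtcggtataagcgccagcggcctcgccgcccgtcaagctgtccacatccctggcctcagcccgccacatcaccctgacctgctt
TARS: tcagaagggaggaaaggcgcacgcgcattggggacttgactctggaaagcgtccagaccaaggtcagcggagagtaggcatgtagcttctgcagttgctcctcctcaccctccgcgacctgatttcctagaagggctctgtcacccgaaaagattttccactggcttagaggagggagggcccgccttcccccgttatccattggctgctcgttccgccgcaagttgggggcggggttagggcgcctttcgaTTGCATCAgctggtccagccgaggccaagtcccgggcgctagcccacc
The other set carries the E-box that MYC and related factors bind, searched as CACGTG, which reads the same on both strands. It comes from the genes of RRP9, a protein of the small nucleolar complexes that process ribosomal RNA (chr3:51941855-51942154, minus strand), PNO1, an assembly factor of the small ribosomal subunit (chr2:68157638-68157937, plus strand), and WDR43, a factor of the early small-subunit particle (chr2:28894417-28894716, plus strand).
RRP9: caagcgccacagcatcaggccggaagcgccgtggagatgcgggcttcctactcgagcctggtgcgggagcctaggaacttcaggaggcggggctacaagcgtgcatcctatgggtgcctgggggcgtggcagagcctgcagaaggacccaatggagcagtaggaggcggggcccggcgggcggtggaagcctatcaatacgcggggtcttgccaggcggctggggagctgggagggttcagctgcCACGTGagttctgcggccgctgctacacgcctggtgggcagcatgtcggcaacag
PNO1: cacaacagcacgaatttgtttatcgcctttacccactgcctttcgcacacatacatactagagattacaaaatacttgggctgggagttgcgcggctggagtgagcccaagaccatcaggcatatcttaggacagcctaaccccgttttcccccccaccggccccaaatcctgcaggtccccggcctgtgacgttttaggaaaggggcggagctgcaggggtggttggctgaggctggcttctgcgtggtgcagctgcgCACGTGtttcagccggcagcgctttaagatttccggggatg
WDR43: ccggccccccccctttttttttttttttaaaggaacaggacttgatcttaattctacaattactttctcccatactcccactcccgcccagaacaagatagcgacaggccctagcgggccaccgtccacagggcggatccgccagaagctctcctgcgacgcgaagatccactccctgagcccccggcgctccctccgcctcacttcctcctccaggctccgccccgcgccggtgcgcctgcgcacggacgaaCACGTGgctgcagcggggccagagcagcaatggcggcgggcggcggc

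By symbol, 10144 of the 12711 genes tested had a RefSeq promoter. The response element stood in 5 of 24 promoters of the ATF4 list (20.8%) and in 6 of 13 promoters of the cytosolic aminoacyl-tRNA synthetases (46.2%), against 1.72% of the promoters of all genes tested and 3.67% of all 27305 promoters. The E-box stood in 11 of 32 promoters of ribosome biogenesis factors (34.4%), against 10.4% of the genes tested and 7.43% of all promoters. It was in 14.5% of the promoters of genes that fell with 8AA at 8 h and in 8.21% of those of genes that rose. An ETS site, searched as CCGGAAGT on both strands, was in none of 12 promoters of the ERK list and in 9.08% of the genes tested. A forkhead site, searched as GTAAACA on both strands, was in 2 of 18 promoters of the FOXO list (11.1%) and in 2.26% of the genes tested. None of the 4 motifs holds another, matches of different motifs were counted separately even where they share bases, and a match describes letters in the window, not binding.

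At 8 h, 8AA changed 4415 of the 12711 genes tested (34.7%) at an adjusted p below 0.05 in the quasi-likelihood test of edgeR, adjusted by Benjamini-Hochberg. Of these, 2124 rose (16.7% of the genes tested) and 2291 fell (18% of them). The share of lower genes among the calls was 51.9%, and with scaling by library size alone it was 41.8% (1914 of 4578 calls), so the balance between both directions depended on the scaling. Most changes were small. The median size among called genes was 0.32 on the log2 scale, 3332 of the called genes (75.47%) changed by less than 0.5, and the middle 90% of all genes tested lay between -0.57 and 0.59. A change of at least 1 on the log2 scale was called for 237 genes (1.86%), of which 116 were higher (0.913%) and 121 lower (0.952%). The treated and untreated libraries did not overlap for 8706 genes (68.5%), and among the called genes 1 overlapped. With 2 libraries per group many genes lie apart without any effect of the drug, so this share is not a share of changed genes. From here on CPM refer to the library scaled by TMM, so levels are shares of a library. A change in the RNA content of a cell was not measured, and in such bulk samples fewer cells of a type and less RNA per cell cannot be told apart. Leaving out 8AA library B left 2841 calls.

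**Figure D1:**
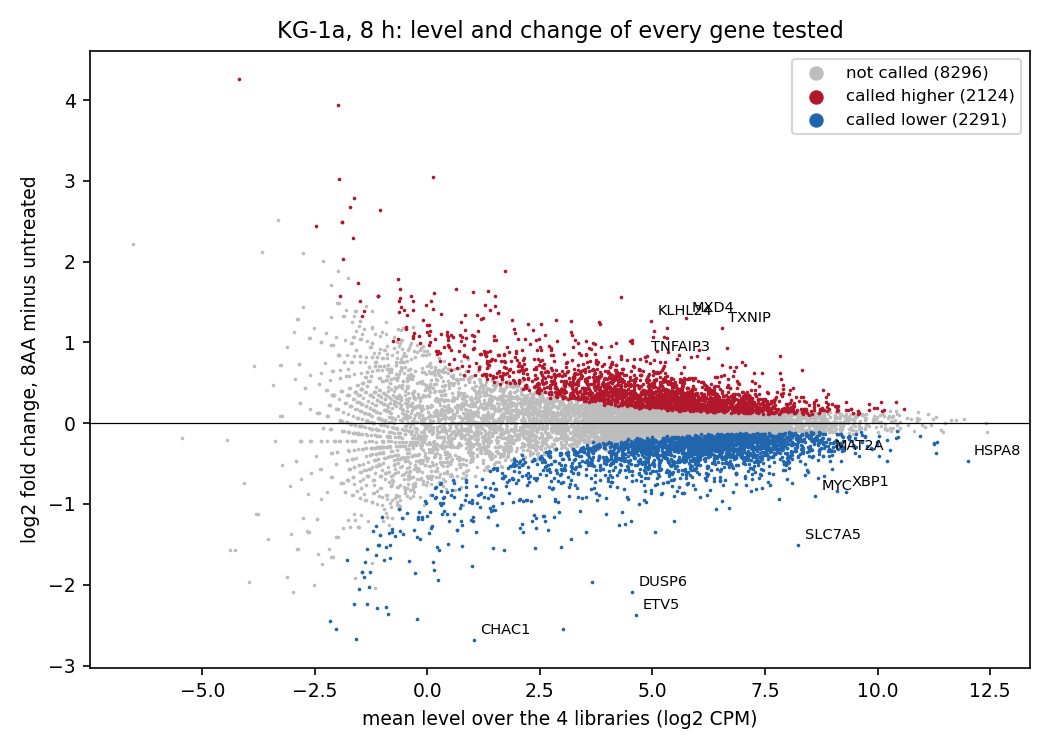
Each point is 1 of the 12711 genes tested, with its mean level over the 4 KG-1a libraries (log2 CPM, x axis) and its log2 fold change of 8AA over untreated at 8 h (y axis), colored by its call. The 2124 higher and 2291 lower genes spread over all levels, and most lie within 0.5 of zero.

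Lower genes became more frequent with the level of expression, while higher genes were most frequent at middle levels. With genes cut into 4 equal classes by mean CPM, from the lowest to the highest, 7.93%, 15.0%, 20.4% and 28.8% were lower. In the same classes 10.1%, 21.7%, 20.2% and 14.8% were higher, and the median log2 fold changes were 0.034, 0.045, 0.0083 and -0.034. The share called also depends on how many counts a gene has, here and in the classes that follow. By RefSeq class, 16.4% of 11593 protein-coding genes were higher and 18.9% lower, while 22.5% of 528 long non-coding RNA genes were higher and 9.66% lower. Among 282 pseudogenes, whose reads may come in part from their parent genes, 24.5% were higher and 7.09% lower. By the span of the gene on the genome, the share of lower genes went from 12.4% under 5 kb to 21.7% at 100 to 200 kb, and was 15.6% at 200 to 500 kb and 15.8% at 500 kb or more. The share of higher genes was 18.9% at 5 to 10 kb and between 14.7% and 18.2% in the other classes under 500 kb. It was 10.3% among the 146 genes of 500 kb or more. Left out of the span classes were 7 genes listed at over 2500 kb. The listed spans of duplicated genes, such as SERF1A at 893 kb and SMN2 at 903 kb, may join separate copies.

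Several of the largest falls above a mean log2 CPM of 2 were in genes known as outputs and brakes of ERK signalling. ETV5, an ETS transcription factor induced by ERK (chr3:185764106-185826901, minus strand on hg19), had 42.7 and 40.8 CPM in the untreated libraries and 7.75 and 8.32 CPM in the 8AA libraries. Both 8AA libraries lay far below both untreated libraries, and the log2 fold change was -2.38 (SE 0.0888, adjusted p = 1.53e-10), a level 5.19 times lower. DUSP6, the phosphatase that removes activating phosphates from ERK, had 37.6 and 38.2 CPM in the untreated libraries and 8.60 and 9.14 CPM in the 8AA libraries, with a log2 fold change of -2.10 (SE 0.0834, adjusted p = 2.63e-10). RGS16, which shortens G protein signals, had 21.2 and 19.3 CPM in the untreated libraries and 4.88 and 5.43 CPM in the 8AA libraries, with a log2 fold change of -1.97 (SE 0.0969, adjusted p = 2.72e-09). SPRED2, an inhibitor of RAF activation, had 51.7 and 44.0 CPM in the untreated libraries and 18.3 and 19.2 CPM in the 8AA libraries, with a log2 fold change of -1.35 (SE 0.0763, adjusted p = 1.27e-08). FOSL1, a partner of JUN in AP-1, had 28.1 and 26.2 CPM in the untreated libraries and 11.2 and 11.4 CPM in the 8AA libraries, with a log2 fold change of -1.26 (SE 0.0957, adjusted p = 2.1e-07). For each of these genes the groups did not overlap, which was a condition for naming all of them except FOSL1.

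A list of 22 ERK output genes was drawn up after these values had been seen, so its count is a description and not independent evidence. Of its 19 tested members 15 fell and none rose, where 18% of all genes tested fell and 16.7% rose, with a median log2 fold change of -1.22 against 0.0072 over all genes tested. SPRED1 and ETV4, with log2 fold changes of -2.29 and -2.24, stood below 1 CPM in every library, as EGR1 did in both 8AA libraries, so their folds rest on few counts. DUSP4 (-1.24), HBEGF (-1.22) and DUSP2 (-1.16) also fell. SPRY2, IER3, PHLDA1 and EPHA4 did not pass the test, at log2 fold changes of -0.12, -0.83, 0.11 and 0.35. Among 35 tested immediate early and rapid-turnover genes, a list that shares some of these members, 5 rose and 13 fell. FOS had 0.713 and 0.97 CPM in the untreated libraries and 0.179 and 0.474 CPM in the 8AA libraries and a log2 fold change of -1.35 (adjusted p = 0.0331). MCL1, whose messenger RNA and protein are short-lived, had 184 and 199.5 CPM in the untreated libraries and 201 and 208 CPM in the 8AA libraries, a log2 fold change of 0.094 (adjusted p = 0.178) that did not pass the test.

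Among genes with a mean log2 CPM of at least 2, the other members of the 12 largest falls had varied roles. ZNF469, a zinc finger gene linked to collagen fibers, had 12.5 and 14.9 CPM in the untreated libraries and 3.04 and 1.68 CPM in the 8AA libraries and a log2 fold change of -2.54 (SE 0.174). SLC7A5, the light chain of the main leucine transporter, fell from 465 and 431 CPM untreated to 162 and 151 CPM with 8AA, a log2 fold change of -1.51 (SE 0.0524). VEGFA, a growth factor for blood vessels, fell from 11.1 and 12.2 CPM untreated to 4.43 and 3.62 CPM with 8AA, a log2 fold change of -1.54 (SE 0.126). RGS19 (-1.55), LGALS12 (-1.43), a galectin, and SIK1 (-1.33), a salt-inducible kinase, completed the named genes on this side with FAM86B1 and FAM86C2P, both at -1.35. FAM86B1 and FAM86C2P belong to a family of near-identical copies, and their counts are uncertain because reads could be split between copies.

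**Figure D2:**
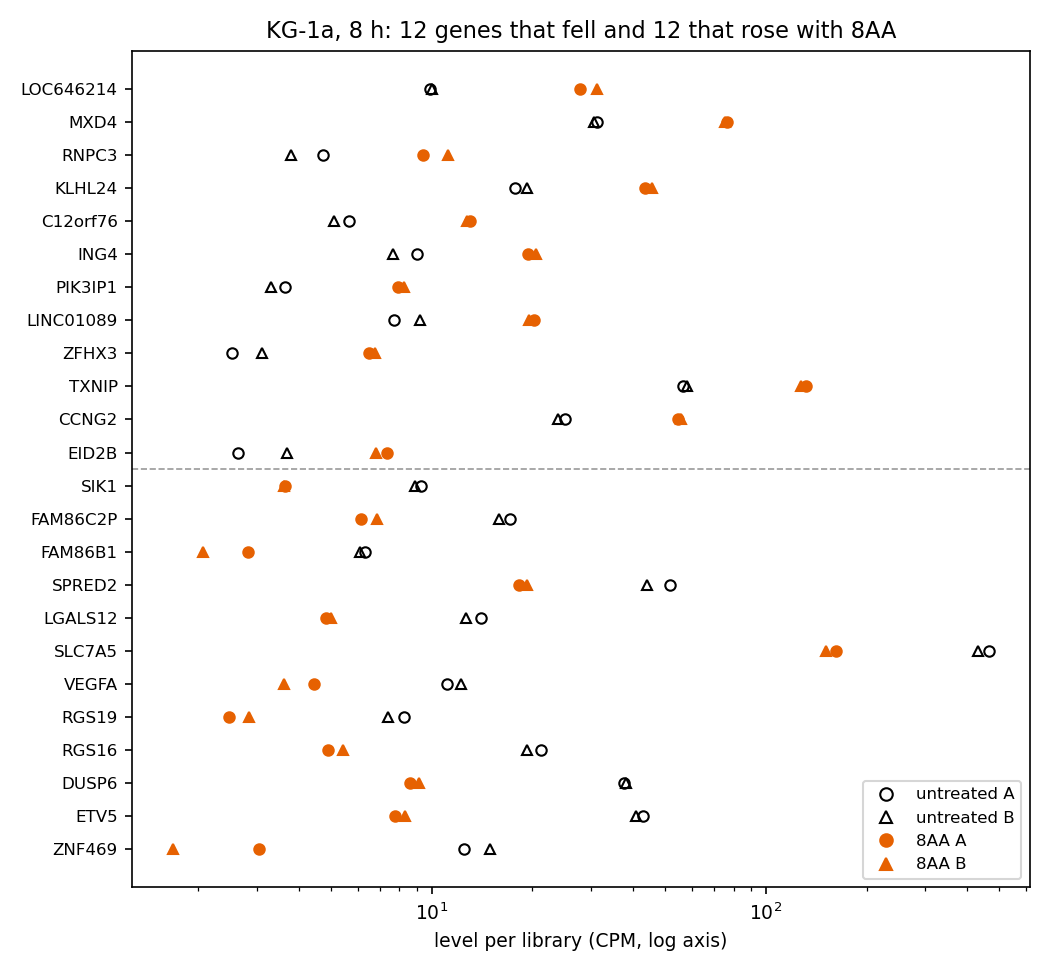
CPM on a log axis (x axis) in each of the 4 libraries for the 12 largest falls and the 12 largest rises among called genes above the level minimum, with untreated A and B and 8AA A and B as separate points. That both 8AA libraries lie on the same side of both untreated libraries was a condition for choosing the 24 genes.

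Genes of ribosome building fell almost without exception. Of 40 ribosome biogenesis factors, 38 fell and none rose, where 18% of all genes tested fell and 16.7% rose. Their median log2 fold change was -0.49, and the count was 38 under each scaling tried. RRP9, whose promoter is printed above, had 49.9 and 45.4 CPM in the untreated libraries and 25.3 and 27.2 CPM in the 8AA libraries, a log2 fold change of -0.86 (SE 0.0812, adjusted p = 1.67e-06). PNO1 had 65.1 and 64.5 CPM in the untreated libraries and 35.0 and 36.4 CPM in the 8AA libraries, a log2 fold change of -0.86 (SE 0.0594). WDR43 had 185 and 190.1 CPM in the untreated libraries and 108 and 103 CPM in the 8AA libraries, a log2 fold change of -0.84 (SE 0.0445). The treated libraries of all 3 stood below both untreated ones. DDX21, a helicase that couples RNA polymerases I and II to ribosomal RNA processing, had 684 and 719 CPM in the untreated libraries and 398 and 387 CPM in the 8AA libraries, a log2 fold change of -0.84 (SE 0.0411). The catalytic and regulatory proteins of RNA polymerase I were among the members that fell, with POLR1B at -0.68, POLR1A at -0.48, UBTF at -0.26 and RRN3 at -0.20. The nucleolar proteins nucleolin (NCL), at -0.37, and nucleophosmin (NPM1), at -0.26, fell too. PPAN, at -0.20 (adjusted p = 0.463), and FBL, at -0.15 (adjusted p = 0.089), did not pass the test. Of the 82 tested genes of the cytosolic ribosomal proteins themselves, 4 rose and 1 fell, with a median of 0.058, and 16 were called higher with scaling by library size alone. The single fall was RPL36A at -0.58, a gene with near-identical copies.

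MYC itself had 525 and 500.4 CPM in the untreated libraries and 284 and 264 CPM in the 8AA libraries, a log2 fold change of -0.90 (SE 0.0599, adjusted p = 5.01e-08). Members of its network moved in both directions, with 7 of 16 tested members higher and 4 lower, beside 16.7% and 18% of all genes. MXD4, which competes with MYC for MAX and represses its targets (chr4:2249160-2263739, minus strand on hg19), had 31.1 and 30.5 CPM in the untreated libraries and 76.5 and 75.6 CPM in the 8AA libraries, a log2 fold change of 1.30 (SE 0.0602, adjusted p = 1.47e-09). MXD1 rose by 0.61 and MXD3 by 0.41, while MXI1, of the same family, changed by -0.29 (adjusted p = 0.0461). MYCN rose from 2.14 and 2.18 CPM untreated to 5.37 and 5.13 CPM with 8AA, a log2 fold change of 1.28 (SE 0.183). MLX, the partner of the MondoA factors that sense glucose and drive TXNIP, fell by a log2 fold change of -0.47 (adjusted p = 1.14e-05), while TXNIP and ARRDC3 rose.

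Genes of the ATF4 program fell as well, among them ATF4 itself. ATF4 had 349 and 336 CPM in the untreated libraries and 208 and 201 CPM in the 8AA libraries, a log2 fold change of -0.74 (SE 0.0606, adjusted p = 3.83e-07). Of 29 tested ATF4 targets and stress effectors 21 fell and 2 rose under each scaling tried, with a median log2 fold change of -0.45 under TMM. Over all genes tested 18% fell and 16.7% rose. CHAC1 (chr15:41245636-41248717, plus strand on hg19), whose response element is printed above, had 3.68 and 3.44 CPM in the untreated libraries and 0.582 and 0.517 CPM in the 8AA libraries, a log2 fold change of -2.68 (SE 0.211, adjusted p = 2.79e-07). It was the largest fall of the list and of all genes tested, at a level below 4 CPM. ASNS had 21.9 and 20.5 CPM in the untreated libraries and 16.4 and 15.0 CPM in the 8AA libraries, a log2 fold change of -0.43 (SE 0.0913, adjusted p = 0.00196). PSAT1, the aminotransferase of serine synthesis, had 165 and 169 CPM in the untreated libraries and 107 and 114 CPM in the 8AA libraries, a log2 fold change of -0.59 (SE 0.0452). Amino acid carriers fell with it, including SLC7A5 (above), SLC1A5 (-0.94), SLC7A1 (-0.64), the cystine carrier SLC7A11 (-0.60) and the shared heavy chain SLC3A2 (-0.36). The mitochondrial folate enzymes MTHFD2 (-0.44), MTHFD1L (-0.50) and ALDH1L2 (-0.94) fell too. The 2 members that rose were the glutamine carrier SLC38A2, at 0.34, and CTH, the last enzyme of cysteine synthesis from methionine, at 0.40 (adjusted p = 0.0418). The stress effectors DDIT3 (-0.29, adjusted p = 0.245), PPP1R15A (0.13, adjusted p = 0.245), DDIT4 (-0.16, adjusted p = 0.125) and SESN2 (-0.10, adjusted p = 0.461) did not pass the test.

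The cytosolic aminoacyl-tRNA synthetases, which charge tRNAs with amino acids, fell in 16 of 20 cases and rose in 1. Their median log2 fold change was -0.33, and over all genes tested 18% fell and 16.7% rose. GARS, for glycine, had 251 and 238 CPM in the untreated libraries and 145 and 142 CPM in the 8AA libraries, a log2 fold change of -0.77 (SE 0.056, adjusted p = 1.4e-07). TARS had 286 and 282 CPM in the untreated libraries and 193 and 188 CPM in the 8AA libraries, a log2 fold change of -0.58 (SE 0.0426). IARS, for isoleucine, had 614 and 594 CPM in the untreated libraries and 411 and 405 CPM in the 8AA libraries, a log2 fold change of -0.57 (SE 0.0392). The groups were apart for each of the 3. QARS, for glutamine, was the member that rose, at 0.21 (adjusted p = 0.00805). SARS, DARS and HARS, at -0.04, -0.01 and 0.0092, did not pass the test.

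8CA, tested at the same dose and time, gave the opposite picture for the ATF4 list. It was compared with 8AA directly, as 1 pair of compounds that differ in the group at position 8, in the same fit over 12711 genes. With 8CA, 17 of the 29 members rose over the untreated cells and none fell, with a median of 0.38. Over all genes tested 0.7% rose with 8CA and 0.181% fell. The direct difference was called lower with 8AA for 27 of the 29 members and higher for none, against 15.8% and 14.7% of all genes tested. CHAC1 had 33.1 and 34.3 CPM with 8CA, a difference of 8AA minus 8CA of -5.92 (95% interval -6.21 to -5.64, adjusted p = 1.42e-13) on the log2 scale. ATF4 had 557 and 542 CPM with 8CA, a difference of -1.42 (95% interval -1.55 to -1.29, adjusted p = 2.76e-10). VEGFA had 19.9 and 21.8 CPM with 8CA, a difference of -2.37 (95% interval -2.61 to -2.13, adjusted p = 1.16e-09). SESN2, which restrains mTORC1 when leucine is scarce, had 37.8 and 36.3 CPM with 8CA and 9.31 and 9.05 CPM with 8AA, a difference of -2.01 (95% interval -2.19 to -1.84, adjusted p = 1.99e-10). ATF3 had 11.8 and 14.7 CPM with 8CA, a difference of -2.38 (95% interval -2.70 to -2.07, adjusted p = 2.25e-08), although its fall under 8AA against untreated cells, at -0.35 (adjusted p = 0.186), did not pass the test. In all of these genes the 8AA libraries were below the 8CA libraries. PPP1R15A had 18.2 and 18.4 CPM with 8CA and was not shown to differ between the compounds, with a difference of -0.024 (95% interval -0.20 to 0.16), and CTH was not shown to differ either, at 0.19 (95% interval -0.10 to 0.49).

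**Figure D3:**
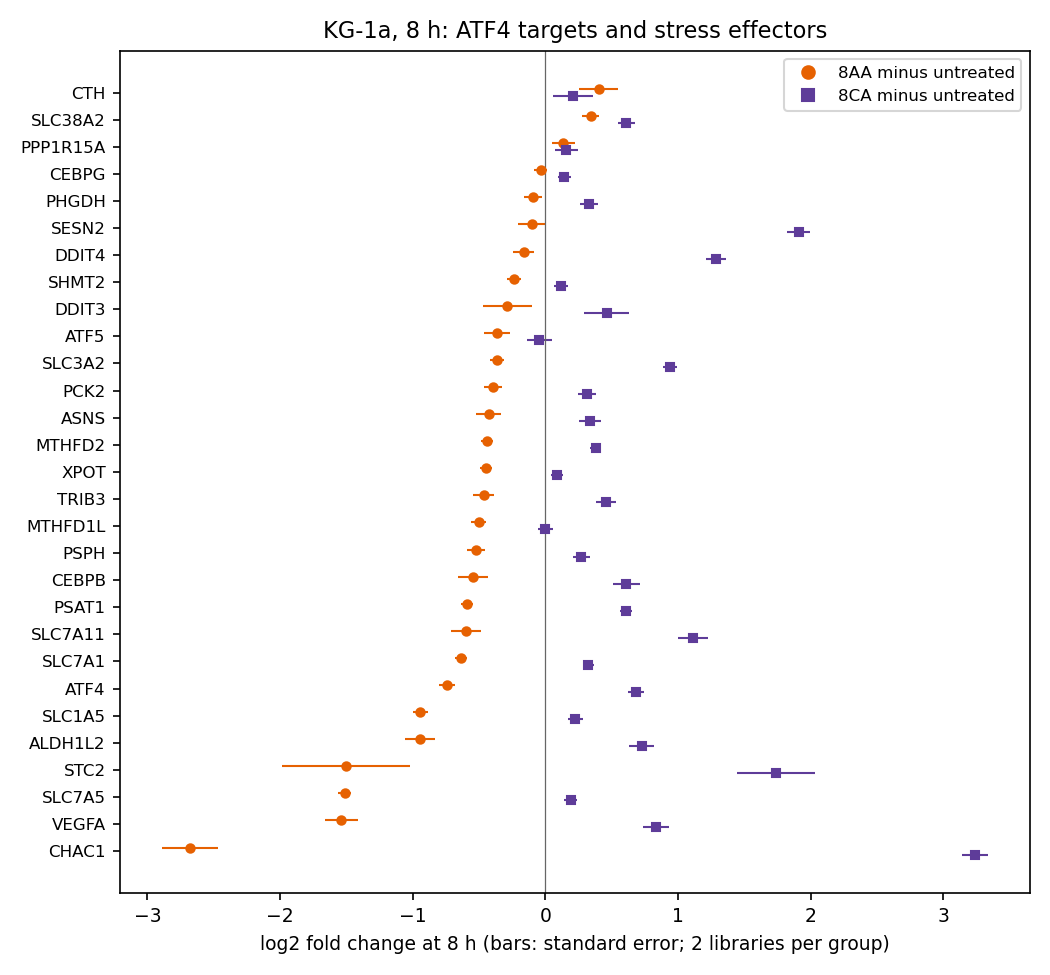
Log2 fold change over the untreated 8 h libraries (x axis) of the 29 tested genes of the ATF4 list (y axis), with 8AA and 8CA as separate points and standard errors as bars. With 8CA 17 genes are called higher and with 8AA 21 are called lower, and both compounds are set against the same untreated libraries.

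Chaperone and lipid synthesis genes fell by smaller steps. Among 32 tested chaperones 24 fell and 1 rose, with a median of -0.22, and 19 fell with scaling by library size alone. Over all genes tested 18% fell and 16.7% rose. HSPA8, the constitutive HSC70, had 4767 and 4779 CPM in the untreated libraries and 3495 and 3390.3 CPM in the 8AA libraries, a log2 fold change of -0.47 (SE 0.0562, adjusted p = 1.38e-05). TRAP1, a mitochondrial HSP90, fell by a log2 fold change of -0.39, and the chaperonin subunits CCT5 and CCT4 were at -0.34 and -0.33. The heat-inducible HSPA1B, at -0.15 (adjusted p = 0.298), did not pass the test. Of 26 genes of the unfolded protein response of the endoplasmic reticulum 9 fell and none rose, so that the share called, 34.6%, was that of all genes, with a median of -0.087. XBP1, the factor that is spliced in that response, had 818 and 793 CPM in the untreated libraries and 452 and 441 CPM in the 8AA libraries, a log2 fold change of -0.85 (SE 0.0489, adjusted p = 1.32e-08), while HERPUD1, MANF and HSPA5 were at -0.50, -0.42 and -0.33. Of 30 cholesterol and fatty acid synthesis genes 18 fell and none rose, with a median of -0.20. HMGCS1, an early enzyme of cholesterol synthesis, had 199 and 200.5 CPM in the untreated libraries and 113 and 115 CPM in the 8AA libraries, a log2 fold change of -0.81 (SE 0.0464, adjusted p = 1.32e-08).

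Of 22 tested genes of glycolysis 7 fell and 1 rose, a share of 36.4% called, near the 34.7% of all genes, with a median of -0.0082, which was 0.029 with scaling by library size alone. SLC2A3, a glucose transporter, had 88.8 and 84.9 CPM in the untreated libraries and 47.1 and 44.8 CPM in the 8AA libraries, a log2 fold change of -0.92 (SE 0.0552, adjusted p = 1.81e-08). SLC16A3, which exports lactate, was at -0.67, SLC2A1 at -0.63 and hexokinase HK2 at -0.60. Respiratory chain subunits had 5 higher and 1 lower of 36, and proteasome subunits had none higher and 1 lower of 34, with medians of 0.078 and 0.0032. With scaling by library size alone 9 respiratory chain genes and 3 proteasome genes were called higher.

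Above a mean log2 CPM of 2, the 12 largest rises included several genes that are known to be restrained by growth factor signalling. KLHL24, an adaptor of a ubiquitin ligase, had 17.7 and 19.2 CPM in the untreated libraries and 43.3 and 45.6 CPM in the 8AA libraries, a log2 fold change of 1.27 (SE 0.107, adjusted p = 5.26e-07). PIK3IP1, an inhibitor of PI3 kinase, had 3.62 and 3.30 CPM in the untreated libraries and 7.92 and 8.27 CPM in the 8AA libraries, a log2 fold change of 1.23 (SE 0.122, adjusted p = 2.66e-06). CCNG2, an atypical cyclin found in resting cells, had 24.97 and 23.9 CPM in the untreated libraries and 54.4 and 55.7 CPM in the 8AA libraries, a log2 fold change of 1.17 (SE 0.0927, adjusted p = 2.88e-07). TXNIP, which lowers glucose uptake and binds thioredoxin, had 56.4 and 58.0 CPM in the untreated libraries and 131 and 127 CPM in the 8AA libraries, a log2 fold change of 1.18 (SE 0.0491, adjusted p = 3.97e-10). In each case the lower 8AA library was more than 2 times the higher untreated one. A list of 25 FOXO-responsive genes, drawn up after these values had been seen, had 13 higher and 1 lower of 20 tested. Their median was 0.43, and over all genes tested 16.7% rose and 18% fell. SESN3 (0.84), TSC22D3 (0.83) and BCL6 (0.78) were among those that rose, and CDKN1B, at 0.13 (adjusted p = 0.163), and IRS2, at -0.051 (adjusted p = 0.787), did not pass the test.

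The other members of the 12 largest rises above a mean log2 CPM of 2 were of mixed kinds. LOC646214, a pseudogene of the kinase PAK2 whose reads may come in part from the parent gene, had a log2 fold change of 1.57. RNPC3, a protein of the minor spliceosome, had 4.72 and 3.78 CPM in the untreated libraries and 9.40 and 11.2 CPM in the 8AA libraries, a log2 fold change of 1.28 (SE 0.141). ING4, a reader of histone methylation, had 9.05 and 7.67 CPM in the untreated libraries and 19.3 and 20.5 CPM in the 8AA libraries, a log2 fold change of 1.26 (SE 0.106). ZFHX3, a large homeobox factor, and the non-coding LINC01089 both rose by 1.23, C12orf76 by 1.26 and EID2B by 1.15.

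Interferon-stimulated and NF-kappaB feedback genes had more members higher than lower, at 12 and 3 of 32 tested, with a median of 0.20. Over all genes tested 16.7% were higher and 18% lower. IFIT1, which binds foreign RNA caps, had 6.86 and 6.79 CPM in the untreated libraries and 13.9 and 13.3 CPM in the 8AA libraries, a log2 fold change of 1.00 (SE 0.101, adjusted p = 3.06e-06). IFIT2 and IFIT3 were both at 0.66, and TNFAIP3, the feedback inhibitor of NF-kappaB, had 22.004 and 19.1 CPM in the untreated libraries and 35.4 and 37.0 CPM in the 8AA libraries, a log2 fold change of 0.82 (SE 0.0756). ISG15 (0.21, adjusted p = 0.355) and MX1 (0.16, adjusted p = 0.623) did not pass the test. Against 8CA, 11 of the 32 were higher and 1 lower with 8AA, where 14.7% of all genes tested were higher and 15.8% lower. IFIT1 had 6.08 and 6.14 CPM with 8CA, a difference of 1.16 (95% interval 0.94 to 1.37, adjusted p = 1.06e-06).

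Genes of cell death and of the p53 response split. Of 18 BCL2 family genes 5 rose and 4 fell, where 16.7% of all genes tested rose and 18% fell. BMF, a killer protein of the BH3-only class, had 48.5 and 43.3 CPM in the untreated libraries and 83.6 and 79.8 CPM in the 8AA libraries, a log2 fold change of 0.83 (SE 0.0641, adjusted p = 2.29e-07), and BCL2L11, which encodes BIM, was at 0.37. BCL2, the target of venetoclax, had 292 and 305 CPM in the untreated libraries and 254 and 253 CPM in the 8AA libraries, a log2 fold change of -0.23 (SE 0.0448, adjusted p = 0.000842). BCL2L1, at -0.13 (adjusted p = 0.194), did not pass the test. Of 23 tested p53 targets 8 rose and 5 fell. TP53INP1 rose from 1.48 and 1.02 CPM untreated to 3.22 and 4.48 CPM with 8AA, a log2 fold change of 1.64, and SESN1 by 0.56, while PLK3 and AEN were at -1.15 and -0.70, all of them past the threshold.

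Of 43 DNA replication genes 15 rose and 4 fell, beside 16.7% higher and 18% lower of all genes, with a median of 0.051. ORC1, of the origin recognition complex, was at 0.33 (adjusted p = 0.00101), LIG1 at 0.25 and PCNA at 0.13 (adjusted p = 0.0458), while DBF4, the activator of the CDC7 kinase, was at -0.43 (adjusted p = 0.000246). Of 37 mitosis and G2/M genes 2 rose and 11 fell, a share of 35.1% called, near that of all genes, and with scaling by library size alone 5 rose and 7 fell. PLK1 had 235 and 217 CPM in the untreated libraries and 184 and 179.8 CPM in the 8AA libraries, a log2 fold change of -0.32 (SE 0.0589, adjusted p = 0.000704). CDC20 (-0.28), AURKB (-0.28) and CCNB1 (-0.27) fell, and CDC25C (0.51) rose.

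Of 33 elongation control genes 2 rose and 4 fell, a share of 18.2% called against 34.7% of all genes tested. HEXIM1, which holds the elongation kinase P-TEFb inactive, had 50.4 and 53.2 CPM in the untreated libraries and 64.8 and 66.8 CPM in the 8AA libraries, a log2 fold change of 0.34 (SE 0.0582, adjusted p = 0.000308). ELL3 was at 0.75 (adjusted p = 0.00702) and NELFE at -0.25. Of 22 cleavage and polyadenylation factors 2 rose and 6 fell, a share of 36.4% near that of all genes, with CPSF2 at -0.45, SYMPK at -0.34 and PABPN1 at 0.33. Of 22 SR splicing factors and CLK kinases 6 rose and 5 fell. SRSF5 had 242 and 250.1 CPM in the untreated libraries and 391 and 388 CPM in the 8AA libraries, a log2 fold change of 0.66 (SE 0.0404, adjusted p = 1.98e-08), and CLK1 and CLK4, kinases of SR proteins, rose by 0.55 and 0.48. Of 19 nonsense-mediated decay factors 7 rose and 4 fell, with UPF3B at 0.53 and the termination factors GSPT1 and ETF1 at -0.51 and -0.39. Of 19 snoRNA host transcripts 5 rose and 5 fell, with SNHG16 at -0.73 and SNHG20 at 0.67.

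Genes that handle adenosine had 3 higher and 8 lower of 23 tested, beside 16.7% higher and 18% lower of all genes. SLC29A2, an equilibrative nucleoside transporter, had 68.5 and 66.1 CPM in the untreated libraries and 36.7 and 37.5 CPM in the 8AA libraries, a log2 fold change of -0.86 (SE 0.0594, adjusted p = 7.89e-08). AK1 (-0.81), an adenylate kinase, ABCC4 (-0.46), a nucleotide exporter, and PNP (-0.43), purine nucleoside phosphorylase, fell. Adenosine kinase, ADK, which phosphorylates adenosine itself, had 79.5 and 80.5 CPM in the untreated libraries and 71.6 and 70.3 CPM in the 8AA libraries, a log2 fold change of -0.17 (adjusted p = 0.0246). DCK, the deoxycytidine kinase, at 0.11 (adjusted p = 0.171), did not pass the test.

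**Figure D4:**
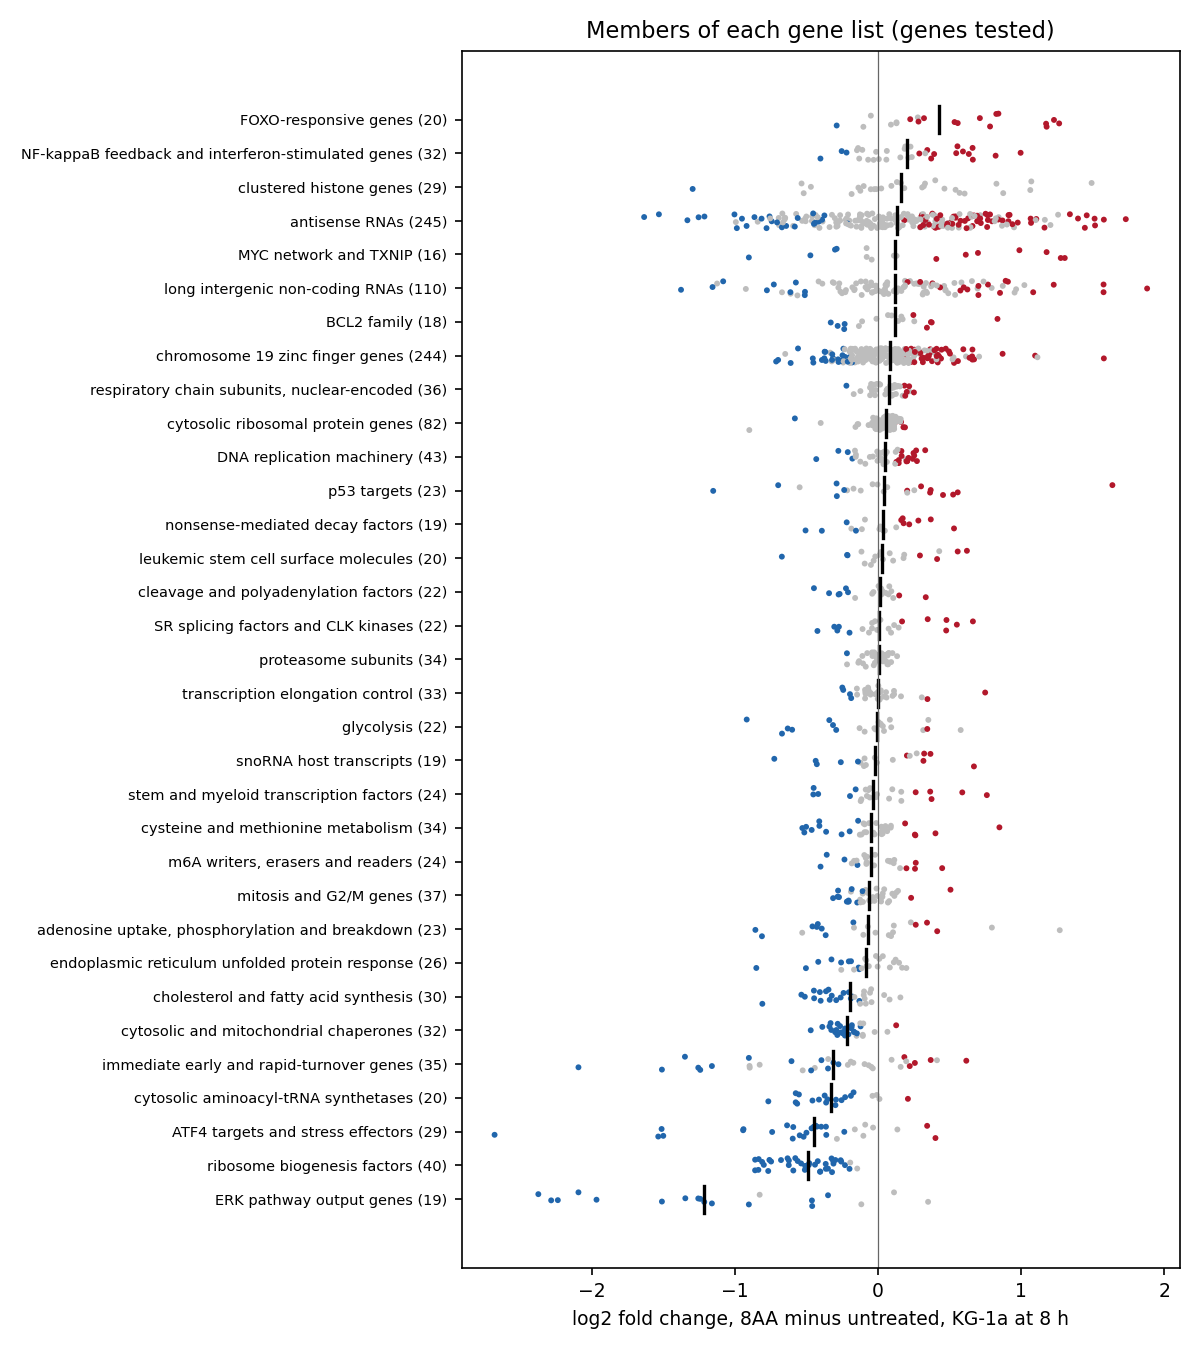
Log2 fold change of 8AA over untreated at 8 h in KG-1a (x axis) for every tested member of each gene list (rows), colored by its call, with the median of the list as a bar. Ribosome biogenesis factors have 38 of 40 members lower, while ribosomal protein genes have 4 higher and 1 lower of 82.

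MAT2A, the synthetase of S-adenosylmethionine on which the study centers, was modestly lower. MAT2A (chr2:85766101-85772403, plus strand on hg19) had 547 and 553 CPM in the untreated libraries and 421 and 406 CPM in the 8AA libraries. Both 8AA libraries were below both untreated libraries, and the log2 fold change was -0.41 (SE 0.0403, adjusted p = 2.35e-06), a level 1.33 times lower. Under 8CA it had 458 and 474 CPM, a log2 fold change of -0.24 (adjusted p = 0.00863), and 8AA lay below 8CA by a difference of -0.17 (95% interval -0.26 to -0.088, adjusted p = 0.00436). METTL16, which methylates MAT2A RNA, had 88.4 and 86.7 CPM in the untreated libraries and 87.7 and 84.7 CPM in the 8AA libraries, a log2 fold change of -0.022 (SE 0.0555, adjusted p = 0.8) that did not pass the test. It was not shown to differ between the compounds, with a difference of -0.099 (95% interval -0.22 to 0.018).

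Of 34 tested genes of cysteine and methionine metabolism 5 rose and 10 fell, with a median of -0.048. KYAT1, a cysteine conjugate lyase, had 7.02 and 8.15 CPM in the untreated libraries and 14.1 and 13.3 CPM in the 8AA libraries, a log2 fold change of 0.85 (SE 0.12, adjusted p = 6.51e-05). BCAT2 (-0.53), TST (-0.52) and ENOPH1 (-0.50), an enzyme of methionine salvage, fell. Among 24 m6A writers, erasers and readers 4 rose and 4 fell. METTL14 was at 0.45 (adjusted p = 9.53e-05), FTO at 0.26 (adjusted p = 0.00354), RBM15B at -0.40 and YTHDF1 at -0.36. These shares of called members, 15 of 34 and 8 of 24, stand beside 34.7% of all genes tested.

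Of 24 stem cell and myeloid transcription factors 5 rose and 5 fell, a share of 41.7% called beside 34.7% of all genes. IKZF2 (0.76) and ERG (0.59), both kept on in leukemic stem cells, rose, and LMO2 (-0.45) and CEBPA (-0.45), a driver of granulocyte fate, fell. Of 20 surface molecules 4 rose and 3 fell, a share of 35% near that of all genes. CD34 had 393 and 369.6 CPM in the untreated libraries and 524 and 491 CPM in the 8AA libraries, a log2 fold change of 0.41 (SE 0.0559, adjusted p = 4.42e-05). CXCR4, the receptor that holds cells in the marrow niche, rose by 0.62 and KIT by 0.56, while CD38 changed by -0.67 (adjusted p = 0.0201).

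Of 110 tested long intergenic non-coding RNAs 18 rose and 9 fell, a share of 24.5% called, and of 245 antisense RNAs 59 rose and 26 fell, a share of 34.7% equal to that of all genes. Their medians were 0.12 and 0.14. The sources used here do not give whether counting used strand, and without it reads of an antisense gene and its partner cannot be told apart. Of 244 zinc finger genes on chromosome 19, which have similar sequences, 46 rose and 26 fell, a share of 29.5% called, with a median of 0.086. ZNF345 was at 1.10 (adjusted p = 5.21e-06) and ZNF296 at -0.71 (adjusted p = 0.000627). Of 29 tested clustered histone genes none rose and 1 fell, HIST1H1B, from 1.48 and 1.55 CPM untreated to 0.492 and 0.733 CPM with 8AA.

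Across all genes the 2 analogs differed in 3868 of 12711 (30.4%) at 8 h, with 1865 higher (14.7%) and 2003 lower (15.8%) under 8AA than under 8CA. Against the same untreated libraries, 8CA called 112 genes (0.881%), 89 higher (0.7%) and 23 lower (0.181%), and 8AA called 4415. Of the 2124 genes that rose with 8AA, 1419 were called higher than with 8CA and 5 lower. Of the 2291 that fell, 1640 were called lower than with 8CA and none higher. These genes were chosen by the same 8AA libraries that enter the difference, so the choice itself favors such a split. Leaving out any 1 of the 4 libraries left 2237 to 2386 differences, and a fit of these 4 libraries alone gave 5811. Ribosome biogenesis factors were called lower with 8AA than with 8CA in 35 of 40 cases, aminoacyl-tRNA synthetases in 14 of 20 and chaperones in 27 of 32. Their medians against untreated cells were -0.062, -0.011 and 0.075 with 8CA, in that order. ETV5 stayed at 40.8 and 41.4 CPM with 8CA, a difference of -2.35 (95% interval -2.54 to -2.17, adjusted p = 8.61e-11). MXD4 had 31.6 and 31.3 CPM with 8CA, a difference of 1.27 (95% interval 1.15 to 1.40, adjusted p = 8.69e-10). TXNIP was higher than untreated with both, at 105 and 104 CPM with 8CA and a difference of 0.31 (95% interval 0.21 to 0.41, adjusted p = 0.000158). The differences toward higher under 8AA included LOC646214 at 1.14 (95% interval 0.84 to 1.44), PIK3IP1 at 1.44 (95% interval 1.18 to 1.71) and the nuclear receptor RORA at 1.15 (95% interval 0.74 to 1.57). MCL1 was not shown to differ, at 0.09 (95% interval -0.02 to 0.20).

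By 24 h, with its own untreated libraries, 8AA changed 6600 genes (51.9%), 3224 higher (25.4% of the genes tested) and 3376 lower (26.6%). The 8AA libraries of 24 h differed from each other more than any other pair, with a chi-square per degree of freedom of 12.3. The fit shares its estimate of the spread over all groups, so p-values of contrasts that use this pair may be too small. Of the genes higher at 8 h, 1456 were higher at 24 h, which was 68.5% of the 8 h genes and 45.2% of the 24 h genes, and 60 were lower. Of those lower at 8 h, 1648 were lower at 24 h, 71.9% and 48.8% of each list, and 94 were higher. The change itself differed between the times for 2330 genes (18.3%), with 971 differences upward (7.64%) and 1359 downward (10.7%). That direction turned with the scaling, since scaling by library size alone gave 1337 upward and 955 downward and upper-quartile scaling 1366 and 880. The count also rested on single libraries, at 1358 without 8AA library A of 8 h, 1538 and 1504 without untreated library A or B of 24 h and 3981 without 8AA library A of 24 h. Among genes higher at 8 h, 185 went further and 198 drew back by 24 h. Among genes lower at 8 h, 420 went further and 326 drew back. The 8 h change used to choose these genes is part of the difference, which favors drawing back.

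Several genes of ERK output were among those that drew back. Of the 19 members of the list drawn up after the values were seen, 6 were called as less lowered at 24 h and none as more lowered. The list was made with the 8 h falls known, which favors this direction. Over all genes tested, 7.64% of the differences between the times were called upward and 10.7% downward. ETV5 had 52.8 and 59.7 CPM untreated and 25.4 and 28.3 CPM with 8AA at 24 h, and its change differed from that at 8 h by 1.31 (SE 0.117, adjusted p = 7e-06). DUSP6 had 43.7 and 40.5 CPM and 25.4 and 22.8 CPM, a difference of 1.29 (SE 0.112, adjusted p = 6.53e-06). ZNF469 had 14.4 and 14.9 CPM and 6.10 and 6.65 CPM, a difference of 1.34 (SE 0.236, adjusted p = 0.00122). In all 3, both 8AA libraries of 24 h lay below both untreated ones. Genes that rose further included TXNIP, at 208 and 199 CPM with 8AA against 62.0 and 64.5 CPM, a difference of 0.51 (SE 0.0686, adjusted p = 0.000188), and PIK3IP1, a difference of 1.04 (SE 0.172, adjusted p = 0.000752).

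Other groups had more lower genes at 24 h than at 8 h, as did all genes tested. Over all genes, 26.6% were lower and 25.4% higher at 24 h, against 18% and 16.7% at 8 h. The difference between the times was called downward for 10.7% of all genes and upward for 7.64%. The proteasome, with 1 of 34 genes lower at 8 h, had 30 lower at 24 h, and 27 of the differences were called. Glycolysis went from 7 to 18 lower of 22, with 14 differences called, and the unfolded protein response from 9 to 18 of 26, with 13 called. Respiratory chain subunits went from 1 to 21 lower of 36, with 18 called. Genes of cysteine and methionine metabolism went from 10 to 21 lower of 34, with 13 called downward and 1 upward. Ribosome biogenesis factors had 38 of 40 lower at both times, with a median of -0.81 at 24 h and 26 differences called downward. DNA replication genes turned from 15 higher and 4 lower to 3 higher and 26 lower, with 21 differences called downward, and mitosis genes from 2 higher and 11 lower to 19 higher and 4 lower, with 12 called upward. These counts of differences within groups were not recomputed under other scalings. MAT2A was at a log2 fold change of -0.43 at 24 h, and METTL16 at -0.31, a difference of -0.29 (SE 0.0796, adjusted p = 0.0203) from 8 h. Of the non-coding genes, 50 of 110 intergenic and 109 of 245 antisense RNAs were higher at 24 h, with 21 and 27 differences called upward and 4 and 4 downward.

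In MV4-11 at 8 h, which shares no library with KG-1a, 8AA changed 3795 of 14055 genes (27%). Of these, 2159 rose (15.4% of the 14055) and 1636 fell (11.6%). Of the genes that rose in KG-1a, 747 rose in MV4-11, which was 35.2% of the KG-1a genes and 39.2% of the 1907 genes higher in MV4-11 among those tested in KG-1a, and 51 fell. Of the genes that fell in KG-1a, 943 fell in MV4-11, which was 41.2% of the KG-1a genes and 60.2% of the 1567 genes lower in MV4-11 among those tested in KG-1a, and 125 rose. The change differed between the lines for 1559 genes (11.1%), with 506 differences toward higher (3.6%) and 1053 toward lower (7.49%) in KG-1a, and 694 and 880 with scaling by library size alone. Leaving out 8AA library B of KG-1a left 969 differences. Among genes that fell in KG-1a, 647 were called as changed less in MV4-11, counting those that turned, and 25 as further. Among those that rose, 344 were less changed and 40 further. The KG-1a change used to choose these genes is part of the difference, which favors smaller changes in MV4-11.

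Of the 19 ERK output genes, 6 were called as more lowered in KG-1a and none in MV4-11. The list was drawn up with the KG-1a falls known, which favors this direction. Over all genes tested, 7.49% of the differences were called toward lower in KG-1a and 3.6% toward higher. DUSP6 changed by -0.44 (adjusted p = 0.00075) in MV4-11, a difference of KG-1a minus MV4-11 of -1.66 (SE 0.137, adjusted p = 4.41e-08). ETV5 changed by -1.56 (adjusted p = 4.12e-08) in MV4-11, a difference of -0.83 (SE 0.185, adjusted p = 0.00452). ZNF469 changed by -0.027 (adjusted p = 0.879) there, a difference of -2.53 (SE 0.177, adjusted p = 3.18e-09). MXD4 and KLHL24 rose more in KG-1a, with differences of 0.63 (SE 0.0876, adjusted p = 4.29e-05) and 0.57 (SE 0.137, adjusted p = 0.00764). Ribosome biogenesis factors fell in both lines, 38 of 40 in KG-1a and 34 of 40 in MV4-11, with 10 called as more lowered in KG-1a. ATF4 list genes fell in 17 of 29 cases in MV4-11 and aminoacyl-tRNA synthetases in 14 of 20. Over all genes tested 11.6% fell in MV4-11. Chaperones fell in 28 of 32, with a median of -0.33 in MV4-11 and 9 called as less lowered in KG-1a. DNA replication genes fell in 18 and rose in 1 of 43 cases in MV4-11, and 21 of them were called as higher in KG-1a than in MV4-11 in their change. MAT2A changed by -0.38 (adjusted p = 2.41e-07) in MV4-11, and the difference between lines, at -0.042 (SE 0.0555, adjusted p = 0.748), did not pass the test. METTL16 changed by -0.26 (adjusted p = 0.00085) in MV4-11, and its difference between lines was 0.23 (SE 0.0767, adjusted p = 0.0567).

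**Figure D5:**
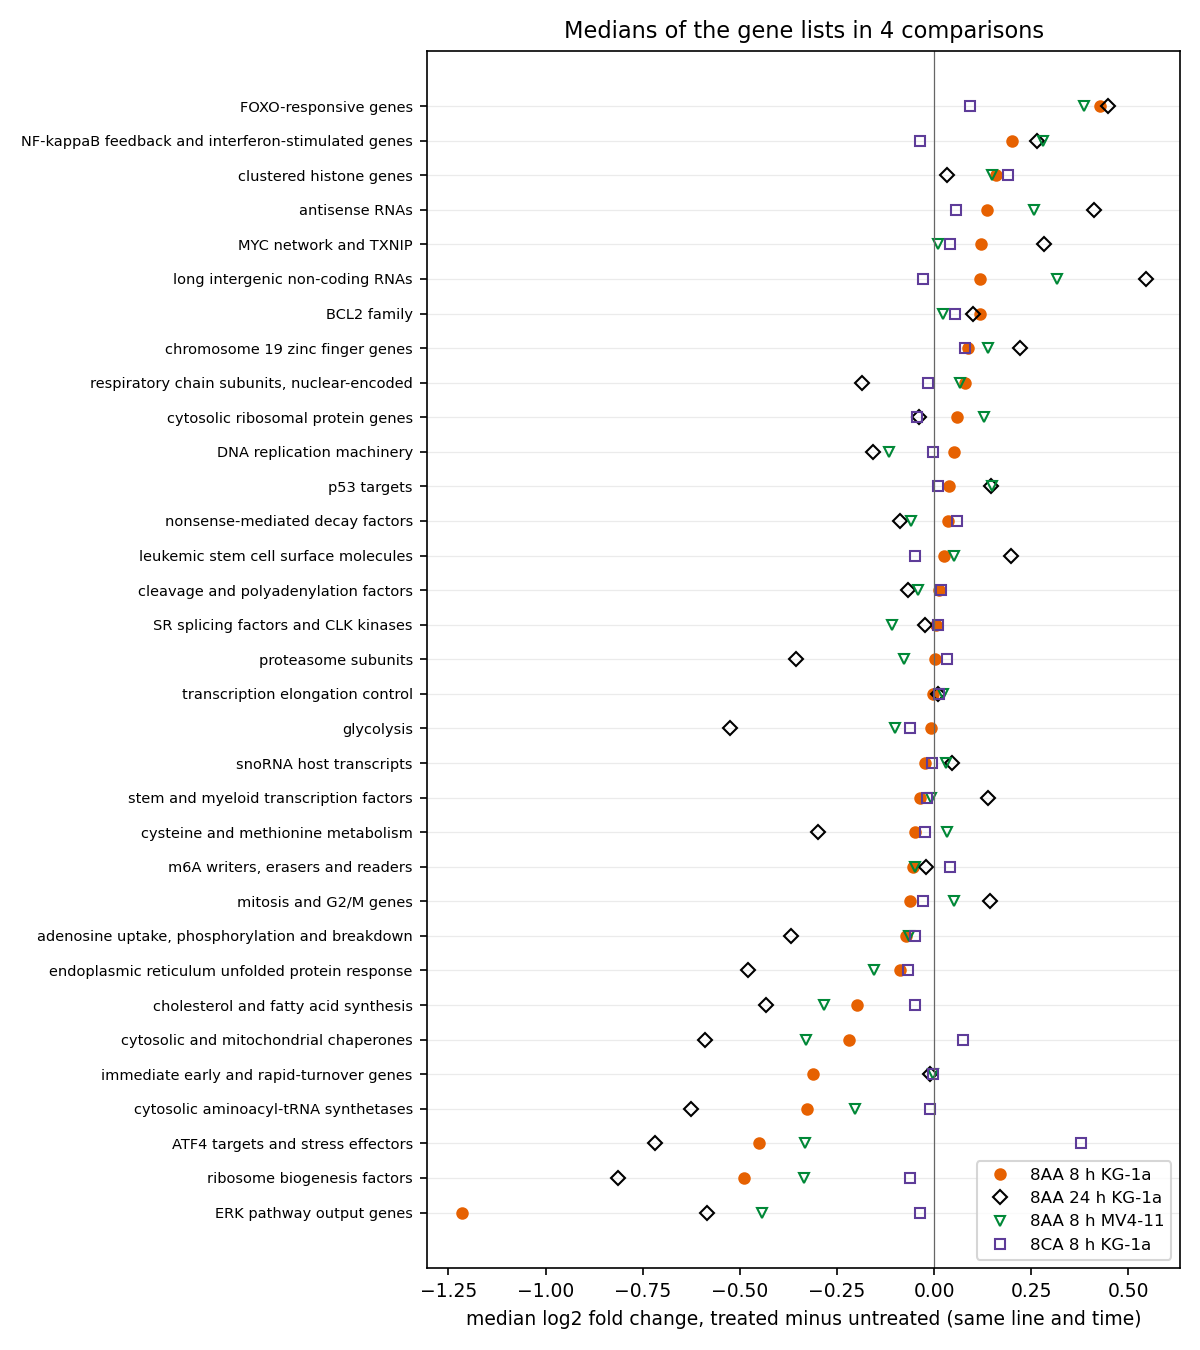
Median log2 fold change over the matched untreated libraries (x axis) of each gene list (rows) for 8AA at 8 h in KG-1a, 8CA at 8 h in KG-1a, 8AA at 24 h in KG-1a and 8AA at 8 h in MV4-11, as separate points. Ribosome biogenesis factors have medians of -0.49, -0.062, -0.81 and -0.33 in that order, and the ATF4 list has -0.45, 0.38, -0.72 and -0.33.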

How the data were processed

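RNA of KG-1a and MV4-11 cells was extracted with a column kit and sequenced as 24 libraries. The authors deposited raw read counts per gene. The submitters' processing notes name Trimmomatic, STAR 2.6.0, HTSeq 0.11.1 and edgeR, and the builds hg19 and hg38; the gene coordinates in the deposited table are those of hg19. Use of strand is not given in the sources used here.

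Counts of the 12 KG-1a libraries in 6 groups were scaled by TMM and tested with edgeR 4.0.16 (R 4.3.3, limma 3.58.1; filterByExpr, minimum count 10; 12711 of 23354 genes kept) by the quasi-likelihood test with Benjamini-Hochberg adjustment at 0.05. Standard errors are the log2 fold change over the root of F. The contrasts were 8AA minus untreated, 8AA minus 8CA, 24 h minus 8 h and, over 24 libraries and 14055 genes, KG-1a minus MV4-11. The fit pools the spread over its groups, with a biological coefficient of variation of 0.0418, and was tested on simulated data. Each group had 2 libraries.

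Genes were named as the 12 lowest and 12 highest called changes whose mean log2 CPM was 2 or more and whose groups lay apart, up to 4 called members with the largest change per gene list (or, under 2 called, the 2 of highest level), MAT2A and METTL16, and the 5 lowest and highest of each difference test. Further list members appear with their values and were chosen after these were seen. The members and lists were chosen with earlier results of these data known, and the ERK and FOXO lists were added after the values were seen. Alternatives were other scalings, filters, fits, DESeq2 1.42.0 and leaving out libraries. Some results of the named lists are not reported here.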

Additional observations from a re-analysis of the deposited data

Results flagged for a closer look

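Differences between the 8 h change of KG-1a and the same contrast at 24 h or in MV4-11 were looked at for 44 genes, the named genes with the largest changes and those at the ends of each difference test. All values are differences of log2 fold changes that passed the edgeR quasi-likelihood test of the difference itself. Between 24 h and 8 h, 2330 genes differed over all genes tested, and 23 of the 44 did. Among genes that fell at 8 h, the change was less negative at 24 h for ZNF469 (1.34), ETV5 (1.31), DUSP6 (1.29), RGS16 (0.57), LGALS12 (0.83) and SPRED2 (0.76). Among genes that rose at 8 h, it was larger at 24 h for KLHL24 (0.52), PIK3IP1 (1.04), LINC01089 (0.46), ZFHX3 (0.70), TXNIP (0.51) and ERVFRD-1 (1.47). The other upward differences were C20orf203 (1.64), CELF6 (1.48), RAB37 (1.47), CCDC146 (1.43) and GATA2 (0.28). Downward differences were found for METTL16 (-0.29), GUSBP5 (-1.17), F5 (-1.14), PLBD2 (-1.05), SPR (-1.001) and MFAP4 (-0.97).

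Between KG-1a and MV4-11 at 8 h, 1559 genes differed over all genes tested. Of the 44 genes, 28 that were also tested in the KG-1a fit differed. So did MYBPH (-3.78) and ACACB (-2.53), both with the lower change in KG-1a. MYBPH and ACACB were filtered out of the KG-1a fit, so they had no test of 24 h against 8 h. The change was lower in KG-1a than in MV4-11 for ZNF469 (-2.53), ETV5 (-0.83), DUSP6 (-1.66), RGS16 (-1.40), RGS19 (-1.47), VEGFA (-0.83), SLC7A5 (-0.46), LGALS12 (-0.78), SPRED2 (-0.95), FAM86C2P (-1.02), SIK1 (-1.16), PLBD2 (-0.45), RAB37 (-0.64), ZNF660 (-4.79) and DIRAS1 (-2.57). It was higher in KG-1a for LOC646214 (1.82), MXD4 (0.63), RNPC3 (1.06), KLHL24 (0.57), C12orf76 (0.76), ING4 (0.53), LINC01089 (0.71), TXNIP (0.30), EID2B (0.84), GATA2 (1.28), TCF7L2 (1.25), CXorf21 (1.19) and SPATA33 (1.15). ZNF660 lay near 0 in MV4-11, with 0 CPM in both untreated libraries and at most 0.218 CPM with 8AA, so its value rests on few counts and depends on the prior count of the fit. MYBPH, ACACB and DIRAS1, at most 0.213, 0.425 and 0.638 CPM in the 4 KG-1a libraries, rest on few counts in that line. GATA2 and TCF7L2, at most 0.979 and 1.55 CPM in the 4 MV4-11 libraries, rest on few counts there too. CXorf21, at most 2.49 CPM in the 4 KG-1a libraries, also stood at a low level in that line. No cause of these differences was tested.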

How the results depend on the processing

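Over 14 alternatives, 1914 values of the 144 named genes kept their side of the threshold, and those past it kept their direction. Another 77 were no longer past it and 6 came past it. None past it in the main fit or the alternative reversed. A change of sign in a value past the threshold in neither fit was not counted. Of the genes, 112 kept their call under each alternative that tested them. Some alternatives did not test every gene, and genes named only for a difference test are not among the 144. The 4415 genes called with 8AA at 8 h became 237 with a minimum change of 1 on the log2 scale. The count was 5073 with only the 4 libraries compared and 5709 with 10 KG-1a libraries, an alternative added after seeing the data that leaves out the 8AA pair of 24 h, and DESeq2's Wald test called 3409. The 3868 differences between 8AA and 8CA became 5811 with only the 4 libraries compared.

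Leaving out 1 library at a time gave 2841 (without 8AA 8 h B) to 3265 calls with 8AA at 8 h, 2237 to 2386 for 8AA against 8CA (each of the 4 libraries), 1358 (without 8AA 8 h A) to 3981 (without 8AA 24 h A) for 24 h against 8 h, with 1504 and 1538 without untreated 24 h B and A, and 969 (without 8AA 8 h B) to 1299 between the lines. The lone library of a group is then assumed to vary like the other groups.

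With the replicate letter as a replicate block the counts were 4726, 4215, 2638 and 1491 in the same order. The letters were not shown to pair the libraries: the labels do not say that a letter marks a shared batch, and the deviations of the A libraries of the untreated and 8AA pairs correlated at 0.11, and the values over all pairs of KG-1a groups ran from -0.16 (untreated 24 h with 8AA 24 h) to 0.30 (untreated 8 h with 8AA 24 h). In the gene lists, 179 counts under other scalings were within 1.5 times the main count and 19 were not.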
